A study of Mus musculus with 8 samples.

Results

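Mitosis, spindle and kinetochore genes were examined in single endocardium cells, the endothelial cells that line the heart, of mouse embryos at E8.5 with 9 somites. The set comprised 45 genes, chosen by name with earlier results of these data known, of 35526 genes named on the array, and a gene with several probes was represented by the probe with the highest mean signal over all arrays. In all, 8 cells were profiled on 1-colour Agilent arrays with 1 cell per array. The 4 WT cells came from embryos of the genotype Mesp1+/+ Sox17 flox/flox, which carry the floxed allele without Cre, and the 4 Sox17 KO cells from Mesp1Cre/+ Sox17 flox/flox embryos, in which Cre is expressed from the Mesp1 locus in early mesoderm and its descendants, the heart included, and not in endocardium alone. The cells were taken from the heart tube according to the labels and from the ventricle according to the study's methods. Neither probe of Sox17 exceeded background in any cell, so the arrays do not check the genotype.

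Entry into mitosis is driven by CDK1 bound to a cyclin, with Polo-like and Aurora kinases building the spindle. Kinetochores, assembled on centromeric chromatin, attach chromosomes to microtubules, and the spindle checkpoint holds back CDC20 and the anaphase-promoting complex until attachment is complete. Most of these genes are transcribed from late S phase to mitosis and are low in cells that are not dividing, so that their transcripts differ among cells of 1 tissue. The embryonic heart at this stage is a growing organ in which dividing and non-dividing cells lie side by side.

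Many mitotic genes carry a cell cycle genes homology region (CHR), read by the DREAM and B-MYB complexes, and CCAAT boxes, read by NF-Y, close to their start. The 250 bases upstream of the start are shown for a member lower in KO cells with both motifs (Cdk1), for the checkpoint gene Bub3, also lower (upstream of the first of 2 listed starts), for a member higher in KO cells (Cks1b) and for a lower member with neither motif (Numa1). Sequences are from RefSeq (GRCm38.p6), 5′ to 3′ in the direction of the gene, and capitals mark CHR letters (TTTGAA or TTCGAA, on either strand) and CCAAT letters on either strand. Cdk1 lies at chr10:69352913-69353162 (minus strand), Bub3 at chr7:131560120-131560369 (plus strand), Cks1b at chr3:89418292-89418541 (minus strand) and Numa1 at chr7:101969593-101969842 (plus strand).
Cdk1: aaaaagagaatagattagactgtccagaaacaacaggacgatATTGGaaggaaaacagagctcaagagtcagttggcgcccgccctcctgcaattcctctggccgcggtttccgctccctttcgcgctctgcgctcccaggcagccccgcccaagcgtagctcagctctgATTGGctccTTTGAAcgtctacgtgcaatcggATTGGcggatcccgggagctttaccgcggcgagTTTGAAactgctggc
Bub3: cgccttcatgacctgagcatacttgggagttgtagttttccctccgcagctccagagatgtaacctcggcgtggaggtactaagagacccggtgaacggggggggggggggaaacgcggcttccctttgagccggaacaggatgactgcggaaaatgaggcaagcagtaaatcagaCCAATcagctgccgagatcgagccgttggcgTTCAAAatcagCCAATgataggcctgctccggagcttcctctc
Cks1b: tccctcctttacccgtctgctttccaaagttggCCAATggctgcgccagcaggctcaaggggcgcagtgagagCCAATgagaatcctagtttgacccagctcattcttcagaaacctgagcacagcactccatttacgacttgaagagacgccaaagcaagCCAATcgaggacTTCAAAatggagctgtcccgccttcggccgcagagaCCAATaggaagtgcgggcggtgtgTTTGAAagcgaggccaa
Numa1: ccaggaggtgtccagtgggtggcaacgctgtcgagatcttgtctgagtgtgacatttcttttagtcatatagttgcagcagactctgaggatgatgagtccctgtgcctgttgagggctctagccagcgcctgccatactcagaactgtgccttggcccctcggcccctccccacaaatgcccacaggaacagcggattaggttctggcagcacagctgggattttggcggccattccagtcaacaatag

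Promoter windows of 300 bases, 250 before and 50 after the start, were matched for 38 members with 41 windows. CHR letters occurred in 78.0% of the members' windows and in 19.2% of all 32851 windows, and CCAAT letters in 80.5% and 37.4%. Both motifs were found together in 70.7% of members' windows and 7.53% of all windows. Among members whose mean was at least 5-fold lower in KO cells, 72.7% of 11 windows held both, against 70.0% of the 30 windows of the other members. The 11 windows came from 9 genes and the 30 from 29, since overlapping windows of Bub3, Prc1 and Ect2 were each counted. These shares are thus per window and do not rank the groups by gene. Cks1b, at least 5-fold higher in KO cells, held 2 CHR and 4 CCAAT matches. Tubg1, Incenp, Aurkb, Ccna2, Tpx2, Smc4 and Kif20a had no window analysed here.

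Levels below are log2 values of the signal after scaling each array to the median of 7570 probes that all 8 arrays detected, with values under 50 raised to 50. This floor is 5.64 on the log2 scale, and values at it have no order. Since each array is 1 cell and no label names its embryo, each genotype counted as 1 sample and no test was made. Differences are mean log2 level of KO minus that of WT cells, with a pooled SD between cells (n = 4 and 4), and a gene was called where the means were at least 5-fold apart. In single cells, a transcript that is absent and one lost in cDNA amplification cannot be told apart.

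Of the 45 members, 12 (26.7%) were at least 5-fold lower in KO cells and 3 (6.67%) at least 5-fold higher. Over all genes on the array, 1.86% were lower and 1.84% higher by that rule, and over the 20270 genes that any cell detected 3.27% and 3.23%. The SD between cells had a median of 2.19 over members and 0.72 over those 20270 genes. The mean was lower in KO cells for 32 members, higher for 9 and equal for 4, and the median difference was -1.04 over members and 0.00 over all genes. Tubg1, Numa1, Bub3 and Cks2 among the lower members and Cks1b among the higher are on gene lists that the study drew from these same cells and are not independent of its contrast. Over the other 40 members, 8 were lower and 2 higher, with a median difference of -0.95.

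The median rested on a single cell. Without WT 2 it was 0.00, with 9 members lower and 3 higher, and without WT 3 it was -1.53, with 18 lower. Of the 15 members past 5-fold, 10 stayed past it whichever cell was left out, whereas Aurka was lost without WT 1, Cdk1 without WT 2, Ccna2 and Cdca3 without WT 2 or WT 4, and Cenpa without KO 1 or KO 2.

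**Figure D1:**
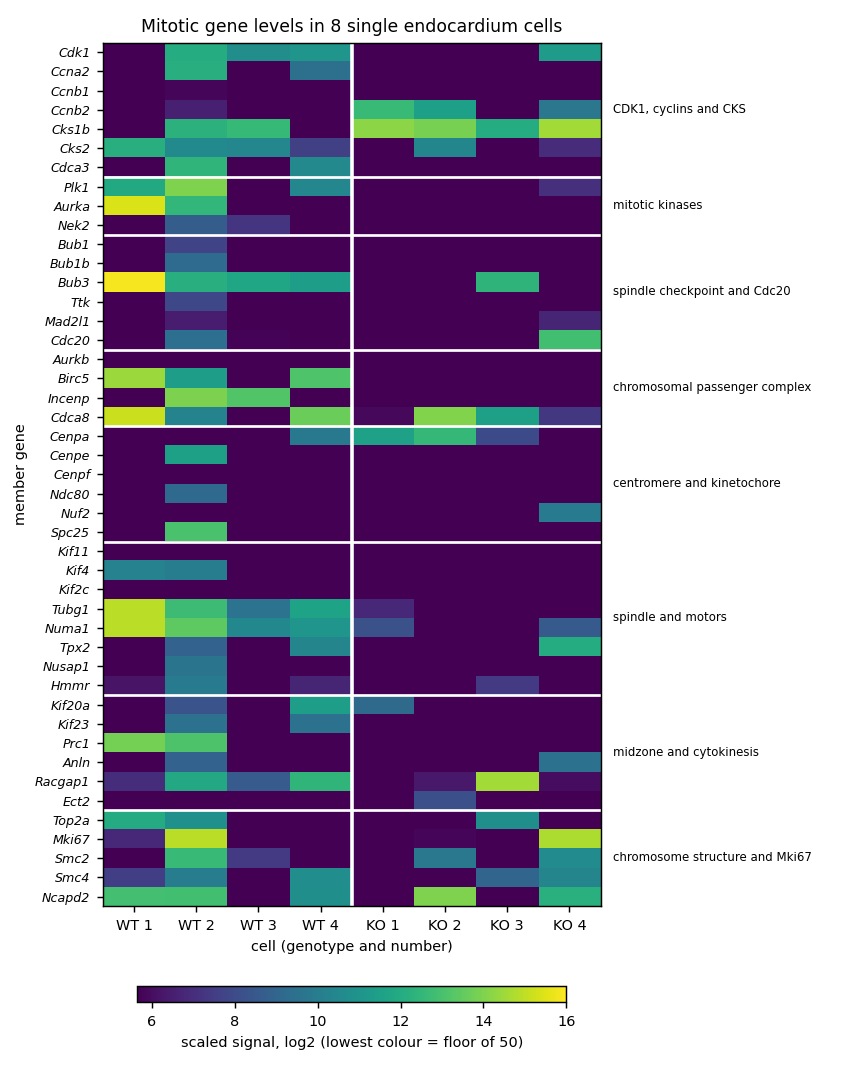
Log2 scaled signal of the 45 mitotic members (rows, grouped by role) in 4 WT and 4 KO cells (columns), with the darkest colour at the floor of 50. WT 2 has signal above the floor in 38 members, and KO 1 in 7.

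The cells differed widely in how many mitotic genes they held. A gene was called detected where its signal was well above background by the scanner software. Members so detected numbered 19, 39, 17 and 23 of 45 in the WT cells, in the order of their numbers, and 15, 14, 12 and 23 in the KO cells, with medians of 21 and 14.5. The ranges overlapped, and KO 4 equalled WT 4. WT 2 held 86.7% of the members and the other cells 26.7% to 51.1%, whereas all genes were detected at 36.4% in WT 2 and at 25.5% to 39.9% in the other cells. WT 2 thus stood apart in members but not in genes overall.

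Only Cdc20, Racgap1, Cdca8 and Ncapd2 were detected in all 8 cells, and Kif11, a motor that pushes spindle poles apart, in none. A single cell held each of 10 members, and in 6 of these (Bub1, Bub1b, Ttk, Aurkb, Nusap1 and Ndc80) it was WT 2. In all, 25 members were detected in more WT than KO cells, 7 in more KO than WT cells and 13 in equal numbers. The shares over all genes were 15.6% and 16.3%. The 14 members detected in WT cells alone were all detected in WT 2, which held 39 of the 45 members, and 4 were detected in KO cells alone. The shares of such genes over the array were not counted.

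**Figure D2:**
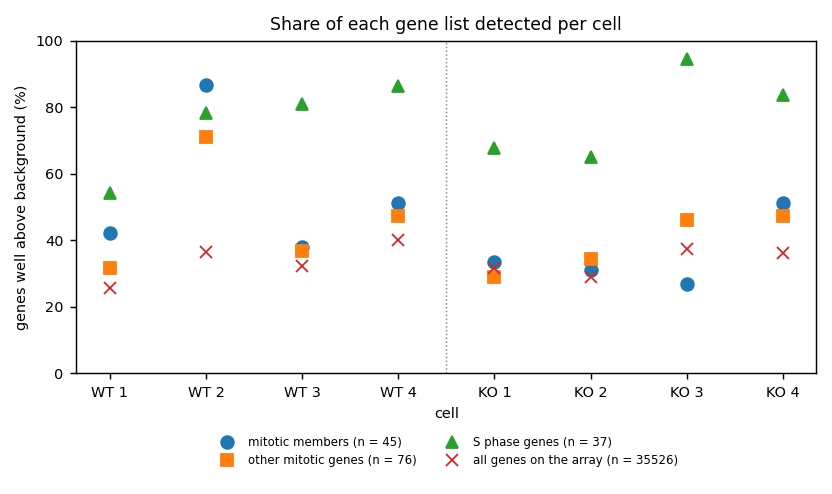
Share of each gene list well above background (y axis, percent) in each cell (x axis), for members, other mitotic genes, S phase genes and all genes. Members reach 86.7% in WT 2 and lie between 26.7% and 51.1% in the other 7 cells.

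WT 2 and KO 4 also held the most cardiomyocyte markers. Of 9 such markers, the WT cells held 3, 7, 6 and 5 and the KO cells 4, 3, 4 and 7, in the same order, and their mean log2 level was 8.57 in WT 2, 8.73 in KO 4 and 5.89 to 7.86 in the others. Myh7 and Myl4 were highest in WT 2, at 13.24 and 14.03, and Tnnt2, Myl7 and Actn2 in KO 4, at 13.26, 12.64 and 6.68. Actc1 was instead highest in KO 1, at 15.32, and was detected in every cell. Nkx2-5 was above the floor in KO 2 alone, at 7.86. Myh6 and Tbx5 were at the floor in all cells. The smooth muscle marker Acta2 was at 13.80 in WT 2 and 12.86 in KO 4 and at most 6.15 elsewhere, Tagln was detected in all cells at up to 8.22, and Cnn1 in none. Of 10 endocardial or endothelial markers, 7, 8, 9 and 10 were detected in WT cells and 6, 9, 9 and 8 in KO cells, of 5 blood markers at most 1 per cell, and of 5 endoderm markers none. Among all these markers, Emcn (endocardial or endothelial) and Actc1 alone were past 5-fold, both higher in KO cells, by 4.07 and 2.67. The part of these markers in the members' values was not tested. With WT 2 and KO 4 both left out, a setting chosen after the data were seen, 10 members were lower and 3 higher, and the median difference was -0.35.

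CDK1, its cyclins and their partners included 4 lower and 2 higher members of 7, with a median difference of -2.59. Cdk1, the kinase that triggers mitosis, was at the floor, 12.05, 10.78 and 11.04 in WT cells 1 to 4 and at the floor in KO 1 to 3 and 11.33 in KO 4. It was high in 3 WT cells and 1 KO cell, with a difference of -2.81 (SD 2.86, 7.03-fold lower). Its other probes gave differences of -0.61 and 0.00, and the mean of all its probes was under 5-fold. Ccna2, a cyclin of S phase and mitotic entry, was at 12.19 in WT 2 and 9.45 in WT 4 and at the floor in every other cell, with a difference of -2.59 (SD 2.26, at least 6.02-fold lower with levels under the floor set to it). Cdca3, an adaptor for degradation of the mitotic inhibitor WEE1, was high in the same pair of cells, at 12.40 in WT 2 and 10.50 in WT 4, and not in KO cells (difference -2.90, SD 2.43, at least 7.48-fold lower).

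The paralogs Cks1b and Cks2, small subunits that tether cyclin-dependent kinases to their substrates, differed in opposite directions. Cks1b was at the floor, 12.29, 12.58 and the floor in WT cells 1 to 4, and at 14.20, 13.87, 12.05 and 14.57 in KO cells 1 to 4. All 4 KO cells were high. KO 3 lay below WT 2 and WT 3, whereas KO 1, KO 2 and KO 4 were above every WT cell. The difference was 4.63 (SD 2.89, 24.8-fold higher), and a second probe gave 4.45. Cks2 was at 12.16, 10.55, 10.44 and 7.61 in WT cells 1 to 4 and at the floor, 10.41, the floor and 6.96 in KO cells 1 to 4, with a difference of -3.03 (SD 2.08, 8.16-fold lower).

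Of the B-type cyclins, which bind CDK1 in mitosis, Ccnb1 was dim in all cells and Ccnb2 in the WT cells. Ccnb2 was above the floor in WT 2 alone of the WT cells, at 6.55, and was at 12.66, 11.49, the floor and 9.75 in KO cells 1 to 4. It was called well above background in 3 WT cells and all 4 KO cells, so KO 3 at the floor was still a detection. Its difference was 4.02 (SD 2.19, 16.2-fold higher), although KO 3 lay within the WT range. Ccnb1 was just above the floor in WT 2, at 5.83, and at the floor elsewhere (difference -0.05). Its probe is annotated on chromosome 7, whereas RefSeq places Ccnb1 on chromosome 13, so these levels may not come from the gene itself. A probe annotated on chromosome 13 was at 6.10 in WT 2 and at the floor elsewhere (difference -0.11).

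Among the mitotic kinases, 2 of 3 were lower and none higher, with a median difference of -4.16. Plk1, the Polo-like kinase needed for spindle assembly, was at 11.92, 14.01, the floor and 10.42 in WT cells 1 to 4 and at 7.05 in KO 4 alone of the KO cells. It was high in 3 WT cells, with WT 3 inside the KO range, and differed by -4.51 (SD 2.56, 22.7-fold lower). Aurka, the Aurora kinase of spindle poles, was at 15.41 in WT 1 and 12.50 in WT 2 and did not exceed the floor in the remaining 6 cells (difference -4.16, SD 3.50, at least 17.8-fold lower). Without WT 1 the difference was -2.29, under 5-fold. Nek2, a centrosome kinase, was above the floor in WT 2 and WT 3 and in no KO cell (-1.16).

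Of the 6 spindle checkpoint genes and their target Cdc20, 1 was lower and none higher, with a median difference of -0.55. Bub3, a checkpoint scaffold, was at 15.87, 12.19, 11.75 and 11.46 in WT cells 1 to 4 and above the floor in KO 3 alone of the KO cells, at 12.36. KO 3 lay within the WT range and the other 3 KO cells below it, with a difference of -5.50 (SD 2.79, 45.1-fold lower). Bub3 was called well above background in 3 KO cells, so its levels at the floor do not all mean absence. The size of its difference depends on the floor, at -6.69 with a floor of 10 and -4.00 with one of 200. Its partners Bub1 and Bub1b and the checkpoint kinase Ttk were above the floor in WT 2 alone, at 7.77, 9.25 and 7.88, with differences of -0.53 to -0.90.

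Bub1 is printed 10 times on the array, so its detection could be read from repeated spots. All 10 spots were well above background in WT 2, with a CV of 3.45%, and none in any other cell. Cdc20, the activator of the anaphase-promoting complex, was detected in every cell but exceeded the floor only at 9.43 in WT 2, 5.76 in WT 3 and 12.87 in KO 4 (difference 0.83, SD 2.88). Mad2l1 was above the floor at 6.42 in WT 2 and 6.71 in KO 4.

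The chromosomal passenger complex, which corrects faulty attachments and guides cytokinesis, held 2 lower members of 4 and none higher, with a median difference of -2.73. Birc5 (survivin) was at 14.43, 11.40, the floor and 13.15 in WT cells 1 to 4 and at the floor in all KO cells, 1 of which was still called well above background. The difference was -5.51 (SD 2.74) with the floor of 50, -7.11 with a floor of 10 and -4.01 with one of 200, so its size depends on the floor, and 2 further probes gave -3.75 and -2.95. Incenp, the scaffold of the complex, was at 13.94 in WT 2 and 13.18 in WT 3 with the remaining 6 cells at the floor (difference -3.96, SD 3.24, at least 15.6-fold lower), and its other probe gave -3.72. The chosen probe was called well above background in all 4 WT cells and in 0 KO cells, so WT 1 and WT 4 at the floor were still detections. The other probe was called so in 5 cells.

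The remaining subunits were not past 5-fold. Cdca8 (borealin) was at 15.15, 10.26, the floor and 13.68 in WT cells 1 to 4 and at 5.88, 14.03, 11.55 and 7.32 in KO cells 1 to 4, with wide overlap and a difference of -1.49 (SD 4.00). Its other probe differed by 0.52, in the opposite direction. Aurkb, the kinase of the complex, was at the floor in all 8 cells and detected in WT 2 alone.

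Centromere and kinetochore genes had no member lower by 5-fold and 1 higher of 6, with a median difference of -0.44. Cenpa, the histone H3 variant that marks centromeres, was above the floor in WT 4 alone of the WT cells, at 9.82, and was at 11.58, 12.53, 7.98 and the floor in KO cells 1 to 4. It was called well above background in 1 WT cell and all 4 KO cells, so KO 4 at the floor was still a detection. The genotypes overlapped and the difference was 2.75 (SD 2.70, 6.71-fold higher). Spc25, a subunit of the NDC80 complex that grips microtubules, was detected in 7 cells but exceeded the floor in WT 2 alone, at 13.04 (difference -1.85).

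Its partners Ndc80 and Nuf2 were each seen above the floor in 1 cell. Ndc80 was at 9.20 in WT 2, and Nuf2 at 9.92 in KO 4, where its 2 other probes were at the floor. Cenpe, a kinetochore motor, was at 11.53 in WT 2, and Cenpf was at the floor in all cells.

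**Figure D3:**
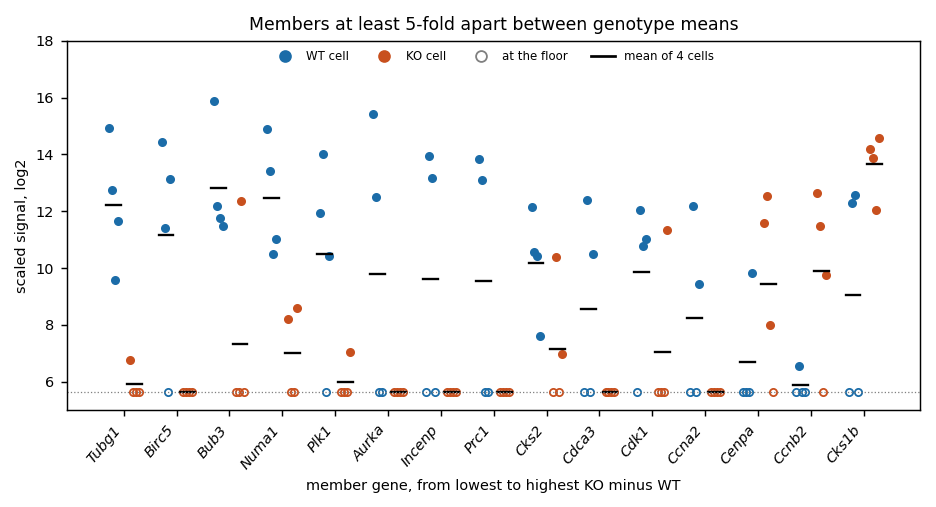
Log2 scaled signal (y axis) of the 15 members at least 5-fold apart between genotype means (x axis), with 1 point per cell, open points at the floor and black lines at the mean of 4 cells. Tubg1 and Numa1 alone have no overlap between WT and KO cells.

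Spindle pole and motor genes held 2 lower members of 8 and none higher, with a median difference of -1.02, and both lower members separated the genotypes. Tubg1, the gamma-tubulin that nucleates microtubules at centrosomes in interphase as in mitosis, was at 14.92, 12.75, 9.59 and 11.66 in WT cells 1 to 4, and at 6.78 in KO 1 and the floor in KO 2 to 4. Every WT cell was above every KO cell, with a difference of -6.30 (SD 1.62, 78.9-fold lower). Numa1, which focuses spindle poles and is a nuclear protein in interphase, was at 14.91, 13.42, 10.48 and 11.03 in WT cells 1 to 4 and at 8.21, the floor, the floor and 8.59 in KO cells 1 to 4. Every WT cell again exceeded every KO cell, with a difference of -5.44 (SD 1.85, 43.3-fold lower).

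These were the only members without overlap, 2 of 45 lower and 0 higher, whereas 0.144% of all genes were lower and 0.645% higher without overlap. Both are on the study's list of genes lower in KO cells, so their separation is not independent of how that list was drawn. They were above the floor in all 4 WT cells, as were Bub3, Cks2 and Racgap1 and no other member. The motor Kif4 was at 10.24 in WT 1 and 10.02 in WT 2 and at the floor elsewhere, at least 4.73-fold lower and outside the call, which it met with the 75th percentile, quantile normalization or a floor of 10. Tpx2, the activator of Aurora A, was at 8.91 in WT 2, 10.35 in WT 4 and 12.06 in KO 4, and differed by -0.39. Nusap1 was at 9.63 in WT 2 alone, Hmmr reached at most 9.91 (difference -1.04), and Kif2c and Kif11 were at the floor in all cells.

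Midzone and cytokinesis genes held 1 lower member of 6 and none higher, with a median difference of -1.53. Prc1, which bundles the antiparallel microtubules of the midzone, was at 13.84 in WT 1 and 13.10 in WT 2 with 6 cells at the floor (difference -3.91, SD 3.20, at least 15.1-fold lower). Racgap1, a subunit of centralspindlin, was at 7.02, 11.91, 8.61 and 12.41 in WT cells 1 to 4 and at the floor, 6.34, 14.57 and 5.98 in KO cells 1 to 4. KO 3 was the highest cell of all and the other 3 KO cells were below every WT cell, with a difference of -1.85 (SD 3.55). A second probe, annotated on chromosome 18, gave -1.15. There WT 1 was at the floor, below KO 1 at 6.74 and KO 2 at 5.67. Kif23, the partner of Racgap1, was above the floor in WT 2 and WT 4 alone, at 9.50 and 9.51. Kif20a was highest in WT 4, at 11.40, Anln was at 8.88 in WT 2 and 9.53 in KO 4, and Ect2 was at 8.17 in KO 2 alone.

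Genes of chromosome structure and the proliferation marker Mki67 had no member past 5-fold of 5, with a median difference of -0.82. Mki67, which coats mitotic chromosomes, was at 6.82, 14.91, the floor and the floor in WT cells 1 to 4 and at the floor, 5.78, the floor and 14.73 in KO cells 1 to 4. A single cell of each genotype was thus high, the difference was -0.31 (SD 4.50), and a second probe placed the same cells high with -0.01. Top2a, which untangles sister chromatids, was at 12 in WT 1, 10.83 in WT 2 and 10.81 in KO 3 and at the floor elsewhere (difference -1.59, SD 3.00), so WT 2 alone was high in both genes.

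The condensin subunits Ncapd2, Smc2 and Smc4 were seen in both genotypes. Ncapd2 was at 12.89, 12.86, the floor and 10.81 in WT cells 1 to 4 and at the floor, 14.00, the floor and 12.22 in KO cells 1 to 4 (difference -1.17, SD 3.92). Smc4 was at 7.55, 10.05, the floor and 10.71 in WT cells 1 to 4 and at the floor, the floor, 9.00 and 10.37 in KO cells 1 to 4 (difference -0.82). Smc2 reached 12.63 in WT 2 and 10.64 in KO 4 (difference 0.11), and none of the 3 separated the genotypes.

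The highest level of a member was most often in WT 2, with 17 members, among them Cdk1, Ccna2, Plk1, Bub1, Mki67, Ndc80 and Spc25. WT 1 was highest for 10, among them Aurka, Birc5, Prc1, Tubg1, Numa1 and Bub3. KO 4 was highest for 6, including Cdc20, Cks1b and Tpx2, and WT 3 for none. WT 1 held Aurka, Birc5, Plk1 and Prc1 with Cdk1, Ccna2 and Ccnb1 at the floor, whereas WT 2 held nearly all.

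Other mitotic genes were read from a list that holds none of the members, and the difference between the lists was not tested. Of 76 measured, 1 was at least 5-fold lower in KO cells and 3 were higher, with a median difference of 0.00. The mean was lower in KO cells for 34, higher for 26 and equal for 16. Kif22, a chromosome-arm motor, was at 12.04, 12.09, 10.62 and the floor in WT cells 1 to 4 and at the floor in all KO cells (difference -4.45, SD 2.15). Spc24, the partner of Spc25, was higher by 2.60 (SD 3.35) and Ckap5, a microtubule polymerase, by 3.63 (SD 2.40). Mybl2, which encodes the B-MYB activator of mitotic genes, was higher by 3.06 (SD 2.91). The genotypes overlapped in each. Spc24 was at the floor in KO 2 and KO 3 and Ckap5 in KO 1, and Mybl2 in KO 1, at 6.97, was below every WT cell. Genes of the list were detected at 24, 54, 28 and 36 in WT cells 1 to 4 and at 22, 26, 35 and 36 in KO cells 1 to 4. WT 2 was again the highest.

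Of 9 cohesin genes, which hold sister chromatids together, none was past 5-fold. Of 37 S phase genes, 6 were lower and 4 higher, with a median difference of -0.04. Cells rich in mitotic members were not always rich in these: KO 3 held the fewest members, 12, and the most S phase genes, 35, whereas WT 2 held 39 members and 29 S phase genes.

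**Figure D4:**
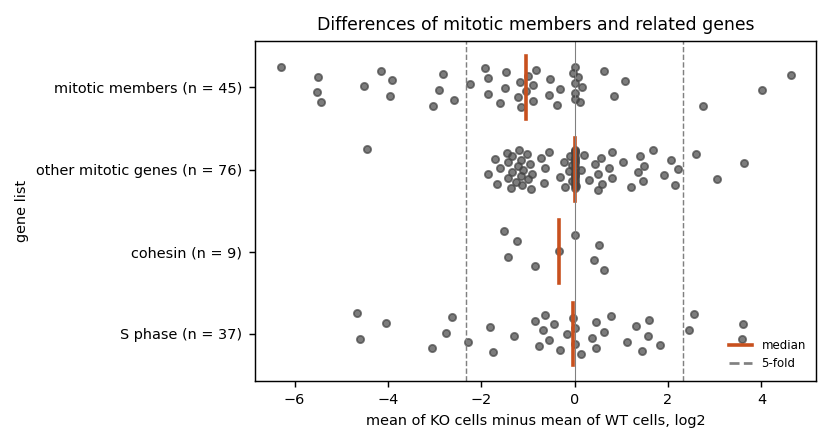
Difference of KO minus WT mean log2 level (x axis) for each gene of 4 lists (rows), with orange lines at the medians and dashed lines at 5-fold. The median is -1.04 for the members and 0.00 for the other mitotic genes.

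**Figure D5:**
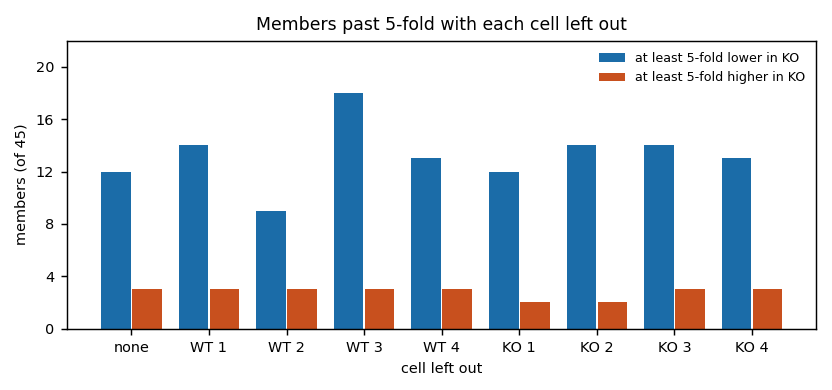
Number of members at least 5-fold lower or higher in KO cells (y axis) with no cell or 1 cell left out (x axis). The lower count runs from 9 without WT 2 to 18 without WT 3, and the higher count is 2 or 3.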

How the data were processed

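The expression of 8 single endocardium cells was measured, with 4 cells of each genotype. The authors deposited the scanner output of Agilent Feature Extraction 12.0.2.2 (array design 028005, probes annotated on mm9), in which each intensity had been background-subtracted within its array and not normalized between arrays. The other flags, as deposited, mark outlier spots and signal over background. Members and lists were chosen with earlier results of these data known.

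Control and outlier spots were dropped, repeated spots averaged, and the 55295 of 55681 probes usable on all arrays kept. A probe was detected where over 50% of its usable spots were well above background, which held for 11370 to 18175 probes per cell. Arrays were scaled to the 50th percentile of 7570 shared probes, floored at 50 and log2-transformed, in that order because most probes are dim. Named members were past 5-fold, without overlap, on the study's gene lists, detected in at least 6 cells, or among 8 well-known mitotic genes (Mki67, Top2a, Cdk1, Ccnb1, Aurkb, Plk1, Cdc20 and Bub1), and the values of other members were added after they were seen, to account for each of them. Of 13 members with several probes, 77.8% of 144 calls of the other probes matched the chosen one. Of the 81 other mitotic genes listed, 5 were unmatched. All arrays shared 1 slide and 1 scan, and their number limits the precision. Alternatives were another percentile, all probes, floor before scaling, floors of 10 and 200, quantile normalization, normexp (offset 50), the mean of probes, a filter on detection, other detection calls and each cell left out. Steps were tested on simulated data with less spread between cells than the members had and without lost transcripts. That test checks the steps and not how reliable the 5-fold call is in these cells. Python 3.11.15, numpy 2.4.6, pandas 2.3.3, matplotlib 3.10.9 and R 4.3.3 with limma 3.58.1 were used.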

Additional observations from a re-analysis of the deposited data

Results flagged for a closer look

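In 16 of 43 groups of 4 cells tested for the named members, the gap from the highest cell to the next took up most of the range of the group. In 11 of them the other 3 cells were at the floor, which fixes this share at 1.0 whatever the level of the highest cell, so that the share says nothing about its height (Ccnb1 in WT 2 was at 5.83 against a floor of 5.64). These were Bub1, Ccnb1, Ccnb2 and Spc25 in WT 2, Cenpa in WT 4, Tubg1 in KO 1, Bub3 and Top2a in KO 3, and Plk1, Cdc20 and Cdk1 in KO 4. Chance alone gives such a gap in about 1 in 20 groups where values are not floored, a rate that does not apply to these groups. For the other 5 the share was 0.836 for Bub3 in WT 1, 0.97 for Cdc20 in WT 2, 0.873 for Mki67 in WT 2, 0.985 for Mki67 in KO 4 and 0.922 for Racgap1 in KO 3. All of these groups except that of Bub3 also held cells at the floor, so the rate does not apply to them either. Groups share cells, and 6 of the 16 were set by WT 2 and 4 by KO 4.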

How the results depend on the processing

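The 12 lower members numbered 11 to 15 under the other scalings, normalizations, filters and the floor of 10, and 8 with a floor of 200. The 3 higher became 2 with the floor set before scaling or at 200. The median difference ran from -1.53 to 0.00 with each cell left out, and the latter was without WT 2. A looser detection call raised the median number of members detected from 14.5 to 22.5 in KO cells and from 21 to 28 in WT cells. Of 468 differences of named members under these settings, 458 moved by no more than the SD between cells and 10 by more. Leaving out 1 cell of a genotype, or 1 of each, cannot move a difference past that SD. The filter on detection left the values of named members unchanged. The count of 458 was thus partly fixed in advance and does not measure stability. The sign changed in 8 of the 468 differences, none of them of a member past 5-fold. Mki67 (-0.31) was at 1.91 without WT 2 and 0.42 to 0.46 without KO 1, KO 2 or KO 3, Ncapd2 (-1.17) at 0.07 without KO 1 or KO 3, and Cdc20 (0.83) at -0.97 without KO 4 and -0.04 without both WT 2 and KO 4. Of 162 detections of members, 37 were under the floor, so dim differences cannot be resolved. No paired analysis was possible because no test was made and cell numbers only name cells.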
